A study of Mus musculus with 9 samples.

Results

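Osteoclasts arise when RANKL, a cytokine of bone, drives macrophages to fuse into cells that resorb mineral, and the genes described here encode nuclear proteins known to hold that step back. They are 9 genes chosen by name (Irf8, Maf, Bcl6, Id1, Id2, Id3, Cebpb, Klf2 and Klf4) out of 28379 genes measured, and all 9 were among the 17002 genes with enough reads to be tested. RNA sequencing covered bone marrow-derived macrophages (BMDMs) of C57BL/6J mice, which the study's methods give as 10 weeks old, in 3 groups of 3 libraries. Every culture received M-CSF at 20 ng/ml and was collected at 48 h. The PBS group, so named in the labels, had neither RANKL nor vitamins, and the methods describe no solvent control for the vitamins. The RANKL group had RANKL at 100 ng/ml. The third group, RANKL + Vit D + K, combined that RANKL with vitamin D (calcitriol) at 1000 nM and vitamin K (MK4) at 20 μM. That vitamin K dose is the one in the sample labels, while the methods state a higher one. No group received the vitamins without RANKL or 1 vitamin alone, the methods speak of pooled RNA, and the number of mice behind a library was not given, so the spread between libraries may be partly technical.

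RANKL signals through NF-κB and c-Fos to raise NFATc1, the transcription factor that turns on the osteoclast program. IRF8, MAF family proteins and BCL6 are known to restrain NFATc1 or its target genes, and PRDM1 (Blimp1) is known to silence these repressors once RANKL acts. The ID proteins lack a DNA-binding region and tie up basic helix-loop-helix partners such as E proteins and MITF. C/EBPβ is made as long and short protein forms with opposite effects on osteoclast formation, which come from the same transcript and so cannot be told apart in gene counts. KLF2 and KLF4 are zinc-finger factors of myeloid and endothelial cells, with KLF4 needed for monocytes and KLF2 known to keep macrophages quiescent.

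The libraries held 65915112 to 68229647 counts each, so that a gene at 3 counts made up at most 4.55e-06% of a library. Macrophage markers were present throughout, with Adgre1 (F4/80) between 219 and 506 FPKM (fragment counts scaled by transcript length and by depth). The treatments left their known marks: Acp5, the gene of the osteoclast enzyme TRAP, rose with RANKL by 5.57 on the log2 scale (SE 0.687, edgeR adjusted p = 0.00514), and Cyp24a1, a vitamin D target gene, had 39, 113 and 64 counts in the RANKL + Vit D + K libraries against 0 to 3 in the others. The libraries numbered 2 stood apart. By a chi-square statistic per degree of freedom, where 1 is pure counting noise, replicates 1 and 3 differed by 29.6, 25.1 and 51.3 in the PBS, RANKL and RANKL + Vit D + K groups, and replicate 2 with the vitamins differed from its group mates by 453.4 and 292.8. Calls on the members that changed without those libraries are given both ways.

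The promoters of the 4 members with a call below and a RefSeq window free of annotated exon bases are shown for their DNA context, as the 250 bases before the most upstream RefSeq start on GRCm38.p6, read 5′ to 3′ on the strand of the gene. Capitals mark the letters of any of the motifs named in the next paragraph, on either strand.
Irf8, chr8:120736108-120736357, plus strand: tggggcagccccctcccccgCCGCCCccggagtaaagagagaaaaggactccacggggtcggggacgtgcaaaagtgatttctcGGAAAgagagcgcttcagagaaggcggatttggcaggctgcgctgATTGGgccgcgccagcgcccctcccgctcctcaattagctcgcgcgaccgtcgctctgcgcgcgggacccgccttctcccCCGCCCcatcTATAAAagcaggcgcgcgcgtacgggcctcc
Bcl6, chr16:23988853-23989102, minus strand: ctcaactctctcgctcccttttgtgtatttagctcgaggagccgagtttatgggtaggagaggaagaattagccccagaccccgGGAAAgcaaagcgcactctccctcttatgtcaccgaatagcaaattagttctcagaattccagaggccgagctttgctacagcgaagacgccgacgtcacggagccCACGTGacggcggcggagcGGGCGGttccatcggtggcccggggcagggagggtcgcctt
Cebpb, chr2:167688665-167688914, plus strand: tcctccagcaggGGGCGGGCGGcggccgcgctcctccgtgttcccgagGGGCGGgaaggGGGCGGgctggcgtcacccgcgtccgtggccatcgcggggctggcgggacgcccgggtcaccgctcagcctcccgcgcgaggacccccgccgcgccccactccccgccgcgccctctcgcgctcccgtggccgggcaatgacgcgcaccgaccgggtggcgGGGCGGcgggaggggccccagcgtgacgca
Klf4, chr4:55532476-55532725, minus strand: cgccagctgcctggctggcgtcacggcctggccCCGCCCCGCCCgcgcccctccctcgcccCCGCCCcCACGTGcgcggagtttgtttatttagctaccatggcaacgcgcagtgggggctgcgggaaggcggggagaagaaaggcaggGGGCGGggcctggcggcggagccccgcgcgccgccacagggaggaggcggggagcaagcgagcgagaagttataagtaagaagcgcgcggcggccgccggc

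The Cebpb window was the richest in G and C at 81.6%, against 74.0% for Klf4, 67.2% for Irf8 and 58.4% for Bcl6. GGGCGG, the GC box bound by SP and KLF proteins, occurred 5 times before Cebpb, 4 times before Klf4, 2 times before Irf8 and 1 time before Bcl6, and copies overlapped in Cebpb and Klf4. Of all 32851 RefSeq mouse windows of this length, 32.7% held at least 1 GC box. Only the Irf8 window held TATAAA (in 12.4% of all windows), starting at position -31, and CCAAT (33.8%). GGAAA, the core letters of NFAT sites, stood 1 time each before Irf8 and Bcl6 and is common (55.6%), while CACGTG, an E-box, stood at position -60 of Bcl6 and -182 of Klf4 (6.02%). None of the 4 windows held the AP-1 letters TGACTCA (4.46% of all windows), the vitamin D receptor half-sites AGGTCA (14.0%) or GGTTCA (8.85%), or direct repeats of the half-sites with 3 bases between them (0.0152%). Neither did they hold 2 copies of GAAA with 2 bases between, an interferon response pattern (2.98%). Irf8 and Bcl6 each have a second RefSeq start, 2281 and 7569 bases into the gene, whose windows are not printed and held GGAAA 2 and 3 times and none of the other motifs. A match of letters describes the window and is not a measured binding site.

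In PBS-treated BMDMs the members spanned a wide range of FPKM. Maf was the most abundant by mean (45.4 ± 5.49, SD, n = 3), followed by Cebpb, Irf8, Id3 and Id2, and the ranges of neighbours in this order overlapped down to Id2. Bcl6, Klf2, Klf4 and Id1 followed in that order with no overlap between neighbours, and Id1 was the lowest (1.25 ± 1.66). With RANKL the order ran from Id3 (40.0 ± 14.1) through Maf, Cebpb, Id2, Irf8, Klf4, Klf2 and Bcl6 to Id1, where Id3 and Maf, Cebpb and Id2, Id2 and Irf8, and Klf4 and Klf2 overlapped. With the vitamins Id2 led (96.3 ± 26.3), overlapping with Cebpb, and Klf4 stood at the third place without overlapping either neighbour. Irf8, Id3, Bcl6, Maf, Id1 and Klf2 followed, where of the neighbours only Bcl6 and Maf did not overlap. The summed FPKM of the 9 genes was 187.4 ± 31.7 in PBS, 176.2 ± 13.8 in RANKL and 234.3 ± 22.3 in RANKL + Vit D + K (SD, n = 3), and the ranges of the PBS and vitamin libraries overlapped.

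**Figure D1:**
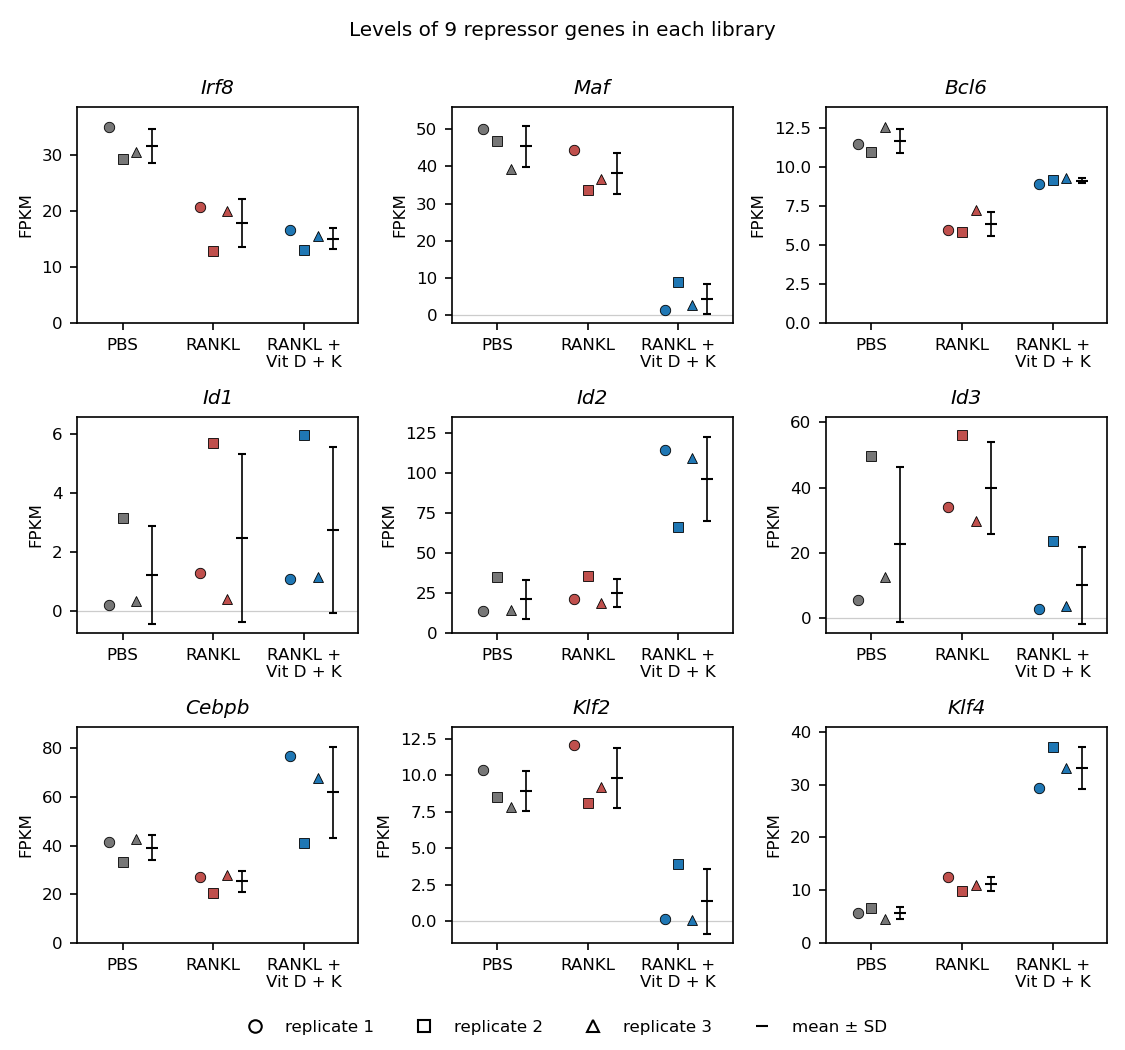
FPKM of each of the 9 genes in each library, with 1 symbol shape per replicate number and the mean ± SD (n = 3) at the right of each group. Maf is at 1.46 to 8.90 FPKM with the vitamins against 33.6 or more elsewhere, Klf4 ascends over the 3 groups without overlap, and the squares of replicate 2 are the highest for Id1 and Id3 in every group.

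RANKL against PBS asks what the osteoclast signal alone did to the repressors. Of the 9 genes, Klf4 rose and Bcl6 fell, and the other 7 did not pass the test. Over all genes tested, 3.61% passed in this comparison (2.35% higher, 1.26% lower). The median log2 fold change of the 9 genes was 0.02, and that of all tested genes was -0.04. In 4 of the 9 genes (Irf8, Bcl6 and Cebpb lower, Klf4 higher) the RANKL and PBS libraries did not overlap, as was so for 35.7% of all tested genes (15.7% higher, 19.9% lower). With the replicate number as a block, a pairing that these 2 groups showed, 4 of the 9 passed (1 higher, 3 lower), beside 4.85% of all tested genes (3.16% higher, 1.69% lower).

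Adding the vitamins to RANKL was followed by more calls: Bcl6, Id2, Cebpb and Klf4 rose, Maf fell, and Irf8, Id1, Id3 and Klf2 did not pass. The background was also larger, with 33.7% of all tested genes called (16.4% higher, 17.2% lower). The median log2 fold change was 0.27 for the 9 genes and -0.04 for all. Libraries did not overlap for 7 of the 9 genes, the 5 called ones with Id3 and Klf2, against 46.8% of all tested genes (21.5% higher, 25.4% lower). Against PBS, the RANKL + Vit D + K group had Id2 and Klf4 higher and Irf8 and Maf lower, which is 4 of 9, beside 40.8% of all tested genes (19.8% higher, 21% lower), and there 6 of the 9 genes (2 higher, 4 lower) did not overlap, against 53.1% of all (24.1% higher, 29% lower). The RANKL libraries enter the first 2 comparisons and the PBS libraries the first and the third, so these comparisons are not independent of each other.

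**Figure D2:**
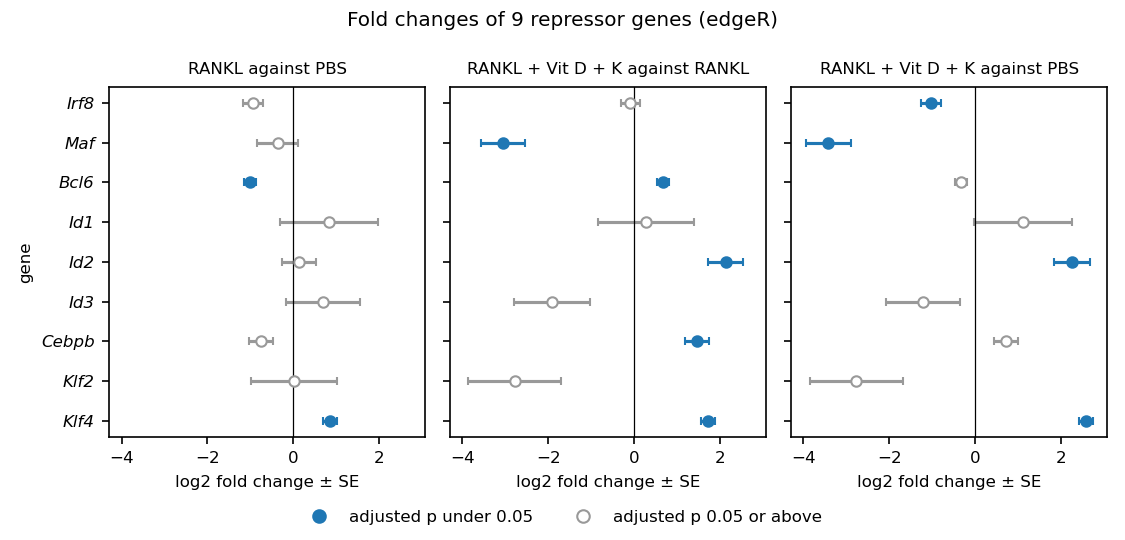
Log2 fold change ± SE of each gene in the 3 comparisons, from edgeR's fit of all 9 libraries, with filled points for an adjusted p under 0.05. Bcl6 lies at -1.01 with RANKL and at 0.67 when the vitamins were added, while Klf4 is to the right of 0 in all 3 panels.

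Irf8 (ENSMUSG00000041515, chromosome 8, 120736358 to 120756694, plus strand) encodes an interferon regulatory factor of monocytes and dendritic cells that binds and restrains NFATc1. It stood at 35.1, 29.4 and 30.5 FPKM in the PBS libraries numbered 1, 2 and 3, at 20.7, 12.9 and 20.1 with RANKL, and at 16.6, 13.1 and 15.6 with RANKL and the vitamins. Every RANKL library lay below every PBS library, while the RANKL and RANKL + Vit D + K libraries overlapped. The log2 fold change of RANKL against PBS was -0.94 (SE 0.226, 0.522-fold), which did not pass (edgeR adjusted p = 0.0560). With the replicate block it was -0.98 and passed (edgeR adjusted p = 0.0131), and in all it passed in 10 of the 20 other settings, the block among them. The vitamins added a difference of -0.10 (SE 0.224, edgeR adjusted p = 0.773), and against PBS Irf8 fell to 0.488-fold (log2 -1.03, SE 0.226, edgeR adjusted p = 0.00676). In a bulk sample, fewer cells of a type and less RNA per cell cannot be told apart. Another annotated gene, Gm20388, covers the Irf8 span on the same strand but shares none of its exon bases.

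Bcl6 (ENSMUSG00000022508, chromosome 16, 23965052 to 23988852, minus strand) encodes a zinc-finger repressor that recruits corepressors to osteoclast genes. Its levels were 11.5, 11.0 and 12.6 FPKM in PBS, 5.97, 5.81 and 7.24 in RANKL, and 8.95, 9.19 and 9.28 in RANKL + Vit D + K. The 3 groups formed 3 separate ranges, with the vitamin group between the other two. With RANKL, Bcl6 fell to 0.498-fold (log2 -1.01, SE 0.138, edgeR adjusted p = 0.00779), and it was higher by 1.59-fold with the vitamins than with RANKL alone (log2 0.67, SE 0.137, edgeR adjusted p = 0.00664). Both calls were kept in all 20 other settings. What remained against PBS was -0.33 (SE 0.136), which did not pass (edgeR adjusted p = 0.0796). This difference kept its direction in all 20 other settings and passed in 5 of them.

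Maf (ENSMUSG00000055435, chromosome 8, 115682942 to 115707794, minus strand) encodes c-MAF, a large MAF factor of resident macrophages that drives Il10 and complement C1q genes. The PBS libraries held 50.1, 46.7 and 39.3 FPKM, the RANKL libraries 44.3, 33.6 and 36.5, and the RANKL + Vit D + K libraries 1.46, 8.90 and 2.74. PBS and RANKL overlapped (log2 -0.37, SE 0.478, edgeR adjusted p = 0.747), and every library with vitamins was far below both. Against RANKL, Maf fell to 0.12-fold (log2 -3.05, SE 0.517, edgeR adjusted p = 0.00329), and against PBS to 0.0932-fold (log2 -3.42, SE 0.525, edgeR adjusted p = 0.00138). Without replicate 2 of the vitamin group, the highest of its 3 libraries, these became -3.98 and -4.35 (edgeR adjusted p = 1.76e-05 and 1.3e-05). Maf shares 440 of its 8241 exon bases with an antisense gene that had at most 1 count in any library.

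The ID genes did not move together. Id2 (ENSMUSG00000020644, chromosome 12, 25093799 to 25097140, minus strand) had 13.6, 35.0 and 14.5 FPKM in PBS, 21.4, 35.3 and 18.9 in RANKL, and 114, 66.2 and 109 in RANKL + Vit D + K. The first 2 groups overlapped (log2 0.13, SE 0.396, edgeR adjusted p = 0.909), and all vitamin libraries were above them. Id2 rose 4.35-fold over RANKL (log2 2.12, SE 0.412, edgeR adjusted p = 0.00561) and 4.77-fold over PBS (log2 2.25, SE 0.414, edgeR adjusted p = 0.00307). Without PBS replicate 2 the second of these was 2.85 (edgeR adjusted p = 0.00215).

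Id3 (ENSMUSG00000007872, chromosome 4, 136143497 to 136145392, plus strand), a BMP-induced gene whose product is known to hold back osteoclast differentiation, had 5.77, 49.8 and 12.6 FPKM in PBS, 34.2, 56.0 and 29.7 in RANKL, and 2.92, 23.7 and 3.78 in RANKL + Vit D + K. Every vitamin library was below every RANKL library, but the spread was large because replicate 2 was the highest in each group. The difference between these groups was -1.91 on the log2 scale (SE 0.882) and did not pass (edgeR adjusted p = 0.125). Without the vitamin replicate 2 it was -3.35 (edgeR adjusted p = 0.0101), and without the 3 libraries numbered 2 it was -3.08 (edgeR adjusted p = 0.000354). RANKL against PBS gave 0.69 (SE 0.856, edgeR adjusted p = 0.733), and 1.69 without the libraries numbered 2 (edgeR adjusted p = 0.0228). The vitamins against PBS gave -1.21 (SE 0.866, edgeR adjusted p = 0.291), and -1.39 without those libraries (edgeR adjusted p = 0.0115).

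Id1 (ENSMUSG00000042745, chromosome 2, 152736251 to 152737410, plus strand), a classic BMP target, was the weakest of the 3 genes. It had 0.225, 3.16 and 0.368 FPKM in PBS (20, 277 and 33 counts), 1.3, 5.72 and 0.430 in RANKL, and 1.10, 5.99 and 1.18 in RANKL + Vit D + K. Replicate 2 was 10.7, 6.62 and 5.26 times the mean of its group mates, and all 3 pairs of groups overlapped. Id1 passed in no comparison in the fit of all 9 libraries without the replicate block (log2 0.83, 0.27 and 1.10, with edgeR adjusted p = 0.766, 0.872 and 0.470). Without the libraries numbered 2 the values were 1.40, 0.58 and 1.98, and the last, the vitamins against PBS, passed (edgeR adjusted p = 0.0310).

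As shares of the summed FPKM of Id1, Id2 and Id3, the makeup differed between the RANKL and the vitamin libraries. Id2 made up 69.4%, 39.8% and 52.9% of the sum in PBS, 37.6%, 36.4% and 38.6% in RANKL, and 96.6%, 69.1% and 95.6% in RANKL + Vit D + K. Id3 took most of the remainder, with a mean of 59.5% ± 1.51 in RANKL and 10.2% ± 12.6 with the vitamins (SD, n = 3). Between these groups the share of Id2 differed by 49.6 percentage points and that of Id3 by -49.3 points, with no overlap (exact two-sided permutation p = 0.1 each, the smallest that 3 against 3 libraries can give). Against PBS the share of Id2 with the vitamins differed by 33.1 points and overlapped (exact two-sided permutation p = 0.2), since vitamin replicate 2 was just below PBS replicate 1, while the share of Id3 differed by -33.8 points without overlap (exact two-sided permutation p = 0.1). RANKL against PBS gave -16.5 points for Id2 and 15.5 for Id3, both without overlap (exact two-sided permutation p = 0.1 each). Leaving out libraries moved these to between -23.6 and -8.82 points for Id2 and between 8.26 and 22.7 for Id3. The share of Id1 stayed at or under 6.25% in every library. In all, 15 such tests of shares and ratios were made, of which 11 reached 0.1, or 0.136 after Benjamini-Hochberg adjustment.

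**Figure D3:**
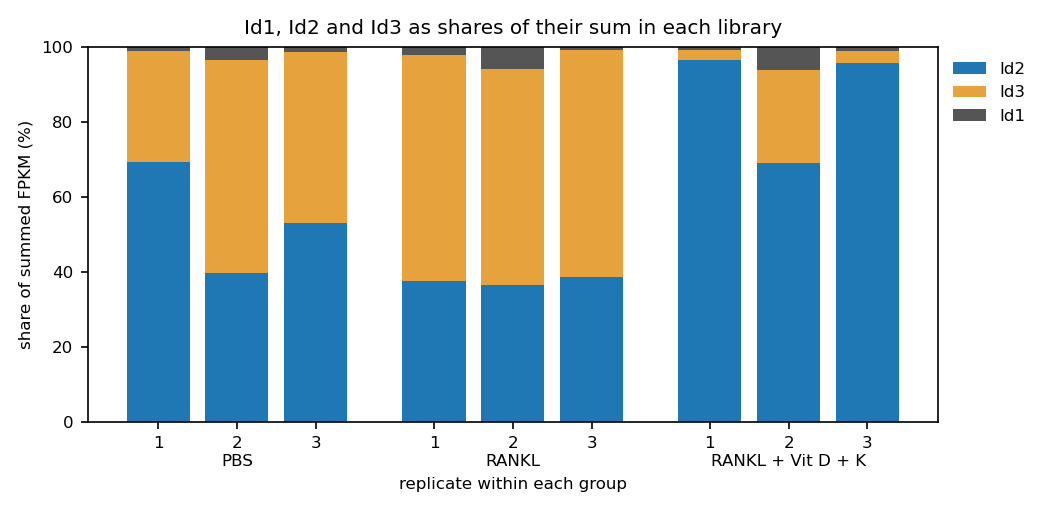
Id1, Id2 and Id3 as percent of their summed FPKM in each of the 9 libraries. Id3 makes up more than Id2 in all 3 RANKL libraries, and Id2 makes up 69.1% to 96.6% in the 3 libraries with vitamins.

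Cebpb (ENSMUSG00000056501, chromosome 2, 167688915 to 167690418, plus strand) encodes C/EBPβ, a leucine-zipper factor of inflammatory and developing myeloid cells. It read 41.4, 33.3 and 42.5 FPKM in PBS, 27.3, 20.5 and 28.0 in RANKL, and 76.9, 40.9 and 67.8 in RANKL + Vit D + K. The RANKL libraries were the lowest with no overlap on either side, and replicate 2 was the lowest library of every group. RANKL against PBS gave -0.75 (SE 0.279, edgeR adjusted p = 0.189), which with the replicate block was -0.76 and passed (edgeR adjusted p = 0.0425). With the vitamins Cebpb rose 2.75-fold over RANKL (log2 1.46, SE 0.283, edgeR adjusted p = 0.00562), and against PBS the value was 0.71 (SE 0.279, edgeR adjusted p = 0.0684). Without replicate 2 of the vitamin group that last value was 0.98 and passed (edgeR adjusted p = 0.00246). Cebpb shares 312 of its 1504 exon bases with Tmem189 on the other strand, whose log2 fold change with the vitamins over RANKL was 1.63 (SE 0.250, edgeR adjusted p = 0.00220). Whether the counting used the strand was not stated, so reads from the shared bases cannot be assigned to either gene. Tmem189 is named because of this overlap, after its values were seen.

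Klf4 (ENSMUSG00000003032, chromosome 4, 55527143 to 55532466, minus strand) was the only member that passed in all 3 comparisons in edgeR's fit of all 9 libraries without the replicate block. Its levels were 5.78, 6.68 and 4.58 FPKM in PBS, 12.5, 9.91 and 11.0 in RANKL, and 29.3, 37.2 and 33.1 in RANKL + Vit D + K. The 3 ranges were separate and ascending, with the step to the vitamin group larger than the step to RANKL. Klf4 rose 1.81-fold with RANKL (log2 0.85, SE 0.156, edgeR adjusted p = 0.0215), 3.27-fold from RANKL to RANKL + Vit D + K (log2 1.71, SE 0.158, edgeR adjusted p = 0.000362) and 5.92-fold from PBS (log2 2.57, SE 0.163, edgeR adjusted p = 9.62e-05). The first of these calls was kept without each of the other 5 libraries and lost without PBS replicate 1 (edgeR adjusted p = 0.0744), PBS replicate 3 (0.0720), RANKL replicate 1 (0.0825) or RANKL replicate 3 (0.0669), with values between 0.75 and 0.92.

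Klf2 (ENSMUSG00000055148, chromosome 8, 72319033 to 72321656, plus strand) had 10.4, 8.51 and 7.82 FPKM in PBS, 12.1, 8.12 and 9.20 in RANKL, and 0.138, 3.96 and 0.0814 in RANKL + Vit D + K. Its counts in the vitamin libraries were 19, 563 and 12, and its FPKM in each was below every library of the other groups. RANKL and PBS overlapped (log2 0.02, SE 1.00, edgeR adjusted p = 0.995). The vitamin group differed from RANKL by -2.79 (SE 1.08, edgeR adjusted p = 0.0746) and from PBS by -2.77 (SE 1.08, edgeR adjusted p = 0.0671), and neither passed. Vitamin replicate 2 held 36.1 times the mean FPKM of its group mates, and without it the values were -6.22 and -6.21 (edgeR adjusted p = 6.65e-06 and 7.22e-06). The size of the difference in Klf2 therefore depends on that library while its sign does not.

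The log2 ratio of Klf2 to Klf4 was 0.657 ± 0.270 in PBS, -0.200 ± 0.128 in RANKL and -6.54 ± 2.91 in RANKL + Vit D + K (SD, n = 3). The pair stepped from more Klf2 in all PBS libraries to more Klf4 in all vitamin libraries. Both steps were without overlap (-0.858 for RANKL against PBS and -6.34 for the vitamins against RANKL, exact two-sided permutation p = 0.1 each, the smallest possible). The size of the second step rested on single vitamin libraries, whose ratios were -7.73, -3.23 and -8.67: it was -5.75, -8.00 and -5.28 without replicate 1, 2 and 3 of that group.

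Several members had their extreme value in the library numbered 2 of every group. Id1 and Id3 were highest and Irf8 and Cebpb lowest in replicate 2 of all 3 groups, while over all tested genes 9.24% were highest and 8.84% lowest there in all 3 groups. Id2 was highest in replicate 2 of PBS and RANKL (2.49 and 1.75 times its group mates) and lowest with the vitamins (0.594 times). The summed neutrophil markers were also highest there: 128, 148 and 1.72 FPKM in the replicate 2 libraries of the 3 groups against 65.2 and 11.1, 90.5 and 11.3, and 0.757 and 0.551 in the others. Their part in the members' results was not tested. In the 6 libraries numbered 1 and 3, a set chosen after seeing the data, RANKL against PBS had Id2, Id3 and Klf4 higher and Irf8, Bcl6 and Cebpb lower, 6 of 9. Over all genes tested in that fit, 10.1% passed (5.73% higher, 4.37% lower), more than with all 9 libraries. The vitamins against RANKL had the 5 calls above with Id3 and Klf2 lower, 7 of 9, beside 52% of all genes (24.6% higher, 27.4% lower). Against PBS all 9 passed (4 higher, 5 lower), beside 53.7% of all genes (25.9% higher, 27.8% lower). The background thus went up with the members' counts, and each group had 2 libraries.

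**Figure D4:**
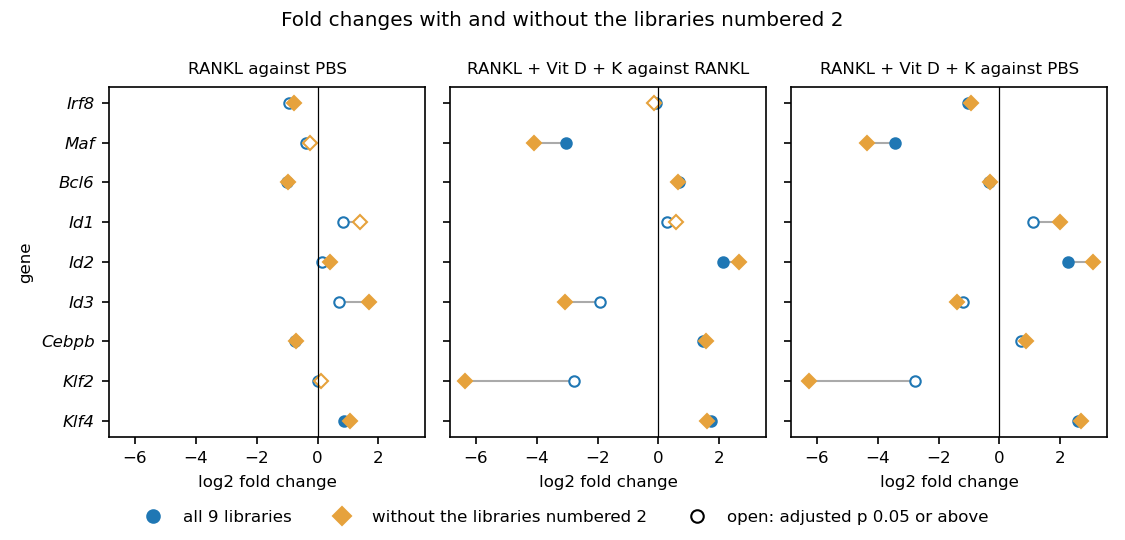
Log2 fold change of each gene from all 9 libraries (circles) and from the 6 libraries numbered 1 and 3 (diamonds), open where the edgeR adjusted p was 0.05 or above. Klf2 goes from -2.79 to -6.37 and Id3 from -1.91 to -3.08 when the vitamins are compared with RANKL, and Bcl6 and Klf4 hardly differ between the fits.

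Around the members, the drivers of osteoclast formation gave the setting. Nfatc1 stood at 9.46 ± 0.401 FPKM in PBS, 18.2 ± 3.53 in RANKL and 6.77 ± 0.609 in RANKL + Vit D + K (SD, n = 3). It rose with RANKL (log2 0.81, edgeR adjusted p = 0.0121) and fell when the vitamins were added (log2 -1.27, edgeR adjusted p = 0.000440). Prdm1, the gene of Blimp1, which represses Irf8, Maf family and Bcl6 genes, was at 5.76 ± 0.601, 8.50 ± 1.70 and 0.638 ± 0.122 FPKM, did not pass with RANKL (log2 0.43, edgeR adjusted p = 0.198) and fell with the vitamins (log2 -3.59, edgeR adjusted p = 6.16e-05). Fos, at 0.640, 59.7 and 0.404 FPKM in the vitamin libraries, did not pass (log2 -1.89, edgeR adjusted p = 0.353). Of the 17 drivers tested, 4 rose with RANKL and none fell, while 3 rose (among them Myc by 2.38 and Jun by 2.34, edgeR adjusted p = 0.0219 and 0.000773) and 6 fell when the vitamins were added. Over all tested genes 2.35% rose and 1.26% fell with RANKL, and 16.4% rose and 17.2% fell with the vitamins, so that the 3 of 17 drivers that rose with the vitamins are near the background, and the counts of the lists that follow stand beside the same shares. Of 14 effector genes of the osteoclast, 10 rose with RANKL, and 10 fell and 2 rose with the vitamins. Oscar, a costimulatory receptor gene, and Car2, the carbonic anhydrase that supplies acid, fell with log2 fold changes of -7.62 and -7.15 (edgeR adjusted p = 0.00196 and 0.000324), and Calcr, the calcitonin receptor gene, had 32 to 204 counts in RANKL and 0 counts in all other libraries.

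Other known repressors of the process included Rbpj, the mediator of Notch signals, which rose with the vitamins (log2 1.55, edgeR adjusted p = 0.000580) and Nfe2l2, the oxidative stress factor, which rose too (log2 0.84, edgeR adjusted p = 0.0199). Of the 5 tested in this list none passed with RANKL alone. In the vitamins against RANKL 2 rose and 1 fell, beside 16.4% and 17.2% of all tested genes, and the median log2 fold change of the list was negative.

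Relatives of the members did not always share their direction. Of the 7 IRF genes tested beside Irf8, 6 fell with the vitamins and none rose, at a median log2 fold change of -1.30 against -0.04 for all tested genes, while Irf8 itself was at -0.10. Irf7, Irf9 and Irf4, the first 2 of which carry interferon responses, fell with log2 fold changes of -3.09, -1.83 and -1.80 (edgeR adjusted p = 0.00112, 0.00118 and 0.00145). Among MAF genes, where Maf fell, the small MAF genes Mafk, Maff and Mafg rose by 2.36, 1.53 and 1.07 (edgeR adjusted p = 0.00617, 0.0368 and 0.000773). Small MAF proteins lack an activation region and pair with NRF2, the product of Nfe2l2. Mafg also fell with RANKL (log2 -0.61, edgeR adjusted p = 0.0297).

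Among C/EBP genes, Ddit3, the stress factor CHOP, rose by 4.50 with the vitamins and Cebpg by 0.97 (edgeR adjusted p = 0.000120 and 0.00341). Cebpa, the granulocyte and monocyte lineage factor, fell both with RANKL (log2 -0.95, edgeR adjusted p = 0.0173) and with the vitamins (log2 -0.49, edgeR adjusted p = 0.0444). Between the vitamin and RANKL libraries its scaled counts overlapped, while its FPKM did not. Of 10 KLF genes tested beside Klf2 and Klf4, 4 rose and 1 fell with the vitamins, beside 16.4% and 17.2% of all tested genes. Klf9, a hormone-responsive factor, rose by 2.77 and Klf11 by 1.78 (edgeR adjusted p = 0.00260 and 0.0234), and Klf15 rose by 4.30 (edgeR adjusted p = 0.0262) from at most 4 counts in any library without vitamins. For Klf11 the vitamin and RANKL libraries overlapped. Neither of Id4 and Bcl6b, the remaining ID and BCL6 relatives, had enough reads to be tested.

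**Figure D5:**
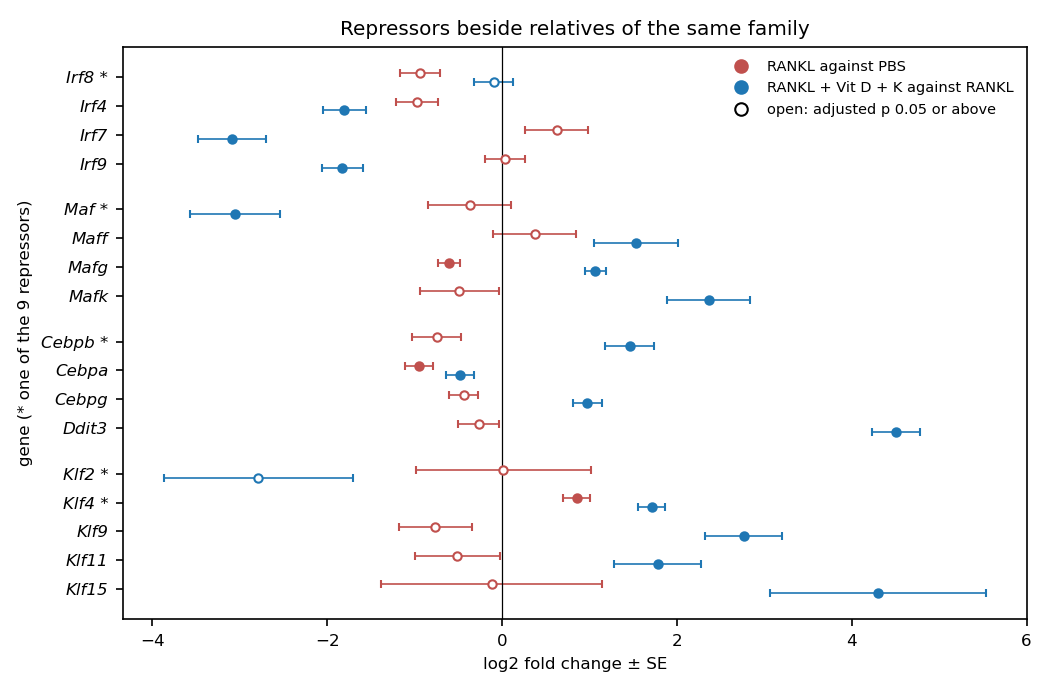
Log2 fold change ± SE of Irf8, Maf, Cebpb, Klf2 and Klf4 (asterisks) and of relatives named by a fixed rule, for RANKL against PBS (red) and RANKL + Vit D + K against RANKL (blue), open where the edgeR adjusted p was 0.05 or above. In blue, Irf8 is at -0.10 beside Irf7 at -3.09, and Maf at -3.05 lies opposite to Mafk at 2.36.

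Genes known as targets of the repressors were read from a list of 13, of which 12 were tested. None passed with RANKL (median log2 fold change -0.49), while 9 fell and none rose with the vitamins against RANKL (median -1.78), where 17.2% of all tested genes fell. Il10, an anti-inflammatory cytokine gene activated by c-MAF, fell by 4.61 on the log2 scale (edgeR adjusted p = 0.0103), from 86, 81 and 24 counts with RANKL to 0, 7 and 0. Isg15, an interferon response gene bound by IRF factors, fell by 3.33 (edgeR adjusted p = 0.000881), and Prdm1, a known BCL6 target, is given above. The list mixes genes that the repressors activate with genes that they repress, and it shares Prdm1 with the drivers.

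Marker lists of cell types moved as well. Of 7 macrophage markers, 5 fell and 1 rose with the vitamins against RANKL, and their summed level was 2230 to 2410 FPKM in PBS, 1670 to 2080 in RANKL and 1340 to 1410 in RANKL + Vit D + K. Of 7 neutrophil markers tested, 6 fell, with summed levels of 11.1 to 128, 11.3 to 148 and 0.551 to 1.72 FPKM. Dendritic cell, B cell, T cell and stromal markers each summed to less than 1 FPKM in every library, and with the vitamins 2 of 5, 1 of 1, none of 2 and 2 of 3 tested genes of these lists fell and none rose. Ly6g, a defining neutrophil marker, was at 0 in 8 of 9 libraries, and Ebf1, a defining B cell marker, in all 9. Whether cell makeup took part in the values of the 9 genes was not tested.

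The genes most like each called member over the 9 libraries were sought by the root mean square difference of log2 CPM (counts scaled to the library total) after each gene's own mean was removed. Zscan29 and Tubgcp4 were nearest to Bcl6 (0.0893 and 0.116), Ccpg1 and Sash1 to Irf8 (0.125 and 0.138), and Fth1 and Cd53 to Cebpb (0.106 and 0.120), where a typical gene was 0.680, 0.755 and 0.861 away. Neurl3 and Ppfia4 were nearest to Maf (0.217 and 0.223), Lin54 and Snx7 to Id2 (0.278 and 0.285), and Gm49774 and Anpep to Klf4 (0.255 and 0.313), with typical distances of 1.82, 1.27 and 1.20. Gm49774 was very low, at means of 0.0286, 0.0626 and 0.148 FPKM in PBS, RANKL and RANKL + Vit D + K. Unlike Klf4 it did not pass in RANKL against PBS (edgeR adjusted p = 0.127). Among the members, Irf8 and Bcl6 were the nearest pair (0.398), followed by Bcl6 and Cebpb (0.487) and Id2 and Klf4 (0.551), and Id2 and Klf2 were the farthest apart (3.56). Fth1, the gene of the ferritin heavy chain, was chosen for its likeness to Cebpb in these same libraries, so a shared pattern follows from the choice. Its levels were 2560 ± 393, 1400 ± 230 and 3810 ± 1150 FPKM in PBS, RANKL and RANKL + Vit D + K. Its log2 fold change of the vitamins against RANKL was 1.61 (edgeR adjusted p = 0.00425).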

How the data were processed

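RNA sequencing of 9 mouse BMDM libraries was analysed, grouped from the labels. The authors deposited raw counts per gene and FPKM values, which they normalized for gene length and library size. The submitters' processing notes name cutadapt 1.9, HISAT2 2.0.4, StringTie 1.3.4d and edgeR and list a human build, although the coordinates were those of GRCm38 (GENCODE M21 gave 87.2% of the gene IDs it holds the same positions). The value 4 occurred 2.22 times as often as 3 and 5 did on average, so the table may not count single reads.

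The 9 genes and all lists were chosen with earlier results of these data known. Counts were filtered by filterByExpr, scaled by TMM and tested in 1 fit of all libraries by edgeR's quasi-likelihood test (R 4.3.3, edgeR 4.0.16), with Benjamini-Hochberg adjustment over 17002 genes and a threshold of 0.05. The SE was the log2 fold change divided by the square root of F. Levels are FPKM, as mean ± SD, and shares and ratios were compared by exact permutation tests. Named genes were the 9 members, Prdm1, Nfatc1 and Fos, up to 3 called genes of each list of relatives, partners and targets with the largest change of the vitamins against RANKL, and the 2 genes most like each called member. Marker genes served as checks. Results of 2 further genes that this rule names, and 1 ratio, are not reported here.

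Deviations from the group means correlated between same-numbered PBS and RANKL libraries (0.122, 0.219 and 0.155), so the number was taken to pair them, and a fit with the replicate block was made. With the vitamins such correlations were 0.0062 to 0.107 against RANKL and -0.0216 to 0.0237 against PBS. Other settings were median-of-ratios scaling, DESeq2 1.42.0, 2 filters, the 2 groups compared alone, limma 3.58.1 on log2(FPKM + 0.1) and log2(FPKM + 1), limma voom with quality weights, counts divided by 4, each library left out and, added after seeing the data, the libraries numbered 2 left out. The fit was tested on simulated data. Promoters were RefSeq windows, found for 7 of the 9 genes.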

Additional observations from a re-analysis of the deposited data

How the results depend on the processing

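Of the 27 member results (9 genes in 3 comparisons), 11 were past the threshold, and those 11 kept their direction in all 20 other settings. Of them 10 also stayed past the threshold in every setting, the exception being Klf4 in RANKL against PBS. The counts of calls depended on the setting most in RANKL against PBS, where 614 genes and 2 of the 9 members passed. There DESeq2 called 1699 genes, limma voom with quality weights 3006 and the fit of only these 2 groups 1736, and the members called were 4 with the replicate block, 4 with voom and 4 with the 2 groups alone. With voom 10698 genes passed between the vitamins and RANKL (5725 in the edgeR fit) and 10899 between the vitamins and PBS (6932). Members called against PBS with the vitamins were 8 with the block, beside 7041 genes, and 7 with voom in place of 4.

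Leaving out libraries gave 126 to 1903 genes and 1 to 6 members called in RANKL against PBS, 3199 to 8952 genes and 5 to 7 members in the vitamins against RANKL, and 4766 to 9240 genes and 4 to 9 members in the vitamins against PBS. Signs turned only in results that had not passed: RANKL against PBS for Id1 (-0.59 to 2.89), Id2 (-0.14 to 0.75) and Klf2 (-0.18 to 0.20), the vitamins against RANKL for Irf8 (-0.31 to 0.056) and Id1 (-0.84 to 1.70), and the vitamins against PBS for Id3 (-2.65 to 0.11) and Id1 (-0.015 to 3.15). The replicate block changed the call of 7 member results and left 20 as they were. Outside the paired comparison the calls it added were Id3 against RANKL (-2.54, edgeR adjusted p = 0.00920) and Bcl6, Id1, Cebpb and Klf2 against PBS, where the libraries share only a number. The median of all genes shifted to -0.16 in the vitamins against RANKL under limma with a pseudocount of 0.1 and to -0.11 without vitamin replicate 2. The causes of these shifts were not tested. Depth was nearly equal between libraries.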

Other observations

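Partners of the repressors were read from 2 further lists. Of 10 genes for E proteins, the dimer partners that ID proteins capture, and BMP-SMAD signalling, none passed in RANKL against PBS, and 3 rose and 1 fell in the vitamins against RANKL, where 33.7% of all tested genes were called (16.4% higher, 17.2% lower), so these 4 of 10 are near the background. Tcf12 rose by 0.79 on the log2 scale and Smad4, the shared carrier of BMP and TGF-β signals, by 0.76, while Tcf4 fell by 0.92 (edgeR adjusted p = 0.0322, 0.0108 and 0.00556). For Tcf12 the scaled counts of the vitamin and RANKL libraries overlapped. Of 8 genes for corepressors and chromatin enzymes, 1 passed with RANKL, and 2 rose and 2 fell with the vitamins, beside the same background. Bcor, a corepressor bound by BCL6, fell by 0.97 (edgeR adjusted p = 0.00146), from 5.10 ± 0.402 FPKM with RANKL to 2.37 ± 0.587 (SD, n = 3), in the same comparison in which Bcl6 rose. Ncor1, another BCL6 partner, rose by 0.66 (edgeR adjusted p = 0.00620), and Ezh2, the methyltransferase that marks silenced genes, rose by 1.38 (edgeR adjusted p = 0.0371).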
